A study of Mus musculus with 9 samples.

Results

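The genes described here encode the enzymes that write and remove DNA methylation: the methyltransferases Dnmt1, Dnmt3a and Dnmt3b, the catalytically inactive cofactor Dnmt3l, the oxidases Tet1, Tet2 and Tet3, and Uhrf1, which brings Dnmt1 to newly copied DNA. They were taken by name, each as its mm10 gene span with 5 kb added on both sides (the window), and are 8 of the 21887 protein-coding genes in the reference table. The measurement is H3K27me3, trimethylation of lysine 27 on histone H3, read by chromatin immunoprecipitation sequencing (ChIP-seq) and deposited as genomic intervals in which the authors found the mark enriched. The question put to the data was whether Dnmt3a, its paralogs and the TET genes gain or lose this mark with a mutant Dnmt3a allele or with metformin, a diabetes drug that inhibits mitochondrial complex I.

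The cells were lineage-negative, c-Kit-positive bone marrow cells, a fraction that holds the blood stem and progenitor cells, taken from female mice that had been transplanted. They were enriched on magnetic beads and fixed without culture. WT denotes C57BL/6 mice with the Dnmt3a+/+ genotype crossed to Mx1-cre, and RH denotes Dnmt3afl-R878H/+ crossed to the same Mx1-cre strain, so both genotypes carry the Cre transgene. Mx1-cre is driven by an interferon-inducible promoter and acts in blood cells and in other tissues that respond to interferon. Both received either vehicle (VEH) or metformin (MET) for 1 month, which makes 4 groups of 2 libraries. Age, the share of cells that recombined the allele, and which cells the transplanted host kept are not given in the labels, nor is it said that the 2 libraries of a group came from separate animals. P-values therefore speak only of how far these libraries spread, and that spread may be technical. The input library was not analysed here.

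In mammals, DNMT3A and DNMT3B set new methylation on cytosines that precede a guanine (CG), DNMT3L stimulates them, and DNMT1 with UHRF1 copies the pattern when DNA is replicated. TET enzymes oxidise methylcytosine and so start its removal. Dnmt3a and Tet2 are among the genes most often mutated in clonal blood cell expansion, and the R878H change of the mouse protein is the counterpart of the hotspot substitution found in human leukaemia. H3K27me3 is placed by Polycomb repressive complex 2, typically over CG-rich start sites of genes held silent, and its broad domains tend to exclude dense DNA methylation.

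The mark was found at 2 of the 8 genes, Dnmt3a and Tet1, and next to Dnmt3l, and it was found there in every library of every group. Dnmt1, Dnmt3b, Tet2, Tet3 and Uhrf1 had no interval in their windows in any library. No gene of the 8 passed from unmarked to marked, or the reverse, between groups, and no difference in the extent or height of the mark passed a test. For Dnmt3a, 1 of the 2 RH VEH libraries held a much smaller interval than the other, and the direction of the vehicle comparison turned on that library. The share of genes with an interval in the window in all 8 libraries was 3 of 8 (37.5%), against 6537 of 21887 protein-coding genes (29.9%). The share with none in any library was 5 of 8 (62.5%), against 52.6% of protein-coding genes. When the flanks were left out, 2 of 8 (25%) were marked in all libraries, against 24.8%.

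The libraries held 11620 to 16879 intervals, which covered 80.0 to 185.9 Mb of the genome. RH VEH 1 stood apart from the other libraries. It held the fewest intervals, covered 80.0 Mb where the next lowest, RH MET 1, covered 122.2 Mb, and had the lowest median summit height (12, against 14 to 17). A summit height is the authors' own whole number at the peak of an interval and has no stated unit, so it is given below also as its percentile among the summits of its own library. Read depth is not known, and where a library has no interval the mark may still be present below the limit of the interval caller. As points of reference, Hoxd11, a Polycomb target, was covered over 100% of its window in all 8 libraries, Pax6 over 79.73% to 84.79%, and the housekeeping genes Actb and Gapdh over 0%. Intervals do not read expression, and among the markers of progenitors Gata2 and Tal1 were marked in all 8 libraries, Ptprc and Lmo2 in none, and Kit, the surface protein used to enrich the cells, in 5 libraries over at most 9.157% of its window. Of the T cell markers Cd3e, Cd3g and Cd4 were marked in every library and Cd8a in none; of the B cell markers Pax5 and Ebf1 were marked in every library and Cd79a in none. Of 4 mature myeloid markers 0 to 1 were marked in a library, of 4 erythroid markers 0 to 2, and of 4 stromal and endothelial markers 2. In cells taken in bulk, a smaller number of cells that carry the mark cannot be told apart from less mark in each cell.

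Start sites that the intervals cover or leave free are shown here for both marked and unmarked genes. Each stretch runs 5′ to 3′ on the strand of its gene over the 300 bases around a start, most of them upstream, is taken from RefSeq on GRCm38.p6 (the assembly of mm10), and has every CG in capitals. The Tet1 stretch (chr10:62887275-62887574, minus strand) lay inside an interval in all 8 libraries. The first Dnmt3a start (chr12:3806730-3807029, plus strand) lay between 2 intervals in 4 of the 8 libraries, and start 3 of that gene (chr12:3891494-3891793, plus strand) lay far from any. Dnmt3b (chr2:153649199-153649498, plus strand) and Tet2 (chr3:133544341-133544640, minus strand) had no interval near them in any library.
Tet1: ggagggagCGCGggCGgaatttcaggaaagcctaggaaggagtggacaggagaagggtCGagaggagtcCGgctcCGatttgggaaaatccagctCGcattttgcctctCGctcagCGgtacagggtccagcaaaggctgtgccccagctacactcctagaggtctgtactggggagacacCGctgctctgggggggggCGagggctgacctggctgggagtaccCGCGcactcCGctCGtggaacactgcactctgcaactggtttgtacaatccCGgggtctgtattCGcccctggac
Dnmt3a, start 1: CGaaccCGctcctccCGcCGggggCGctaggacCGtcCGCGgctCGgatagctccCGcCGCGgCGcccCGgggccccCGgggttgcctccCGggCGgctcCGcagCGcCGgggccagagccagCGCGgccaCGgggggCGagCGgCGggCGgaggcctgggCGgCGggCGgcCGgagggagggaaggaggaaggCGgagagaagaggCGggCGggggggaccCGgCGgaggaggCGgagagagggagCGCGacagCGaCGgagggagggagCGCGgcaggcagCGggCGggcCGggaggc
Dnmt3a, start 3: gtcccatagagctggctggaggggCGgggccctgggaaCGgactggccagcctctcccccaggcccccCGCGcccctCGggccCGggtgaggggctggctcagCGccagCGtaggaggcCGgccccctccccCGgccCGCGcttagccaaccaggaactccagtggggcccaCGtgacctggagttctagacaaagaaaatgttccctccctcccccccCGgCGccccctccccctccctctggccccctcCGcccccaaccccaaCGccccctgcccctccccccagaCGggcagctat
Dnmt3b: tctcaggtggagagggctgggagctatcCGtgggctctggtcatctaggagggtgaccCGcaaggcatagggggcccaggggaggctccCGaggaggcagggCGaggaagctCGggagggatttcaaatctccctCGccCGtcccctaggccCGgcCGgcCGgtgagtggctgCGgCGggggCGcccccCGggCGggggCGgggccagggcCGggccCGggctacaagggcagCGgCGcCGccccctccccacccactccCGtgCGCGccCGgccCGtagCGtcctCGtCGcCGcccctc
Tet2: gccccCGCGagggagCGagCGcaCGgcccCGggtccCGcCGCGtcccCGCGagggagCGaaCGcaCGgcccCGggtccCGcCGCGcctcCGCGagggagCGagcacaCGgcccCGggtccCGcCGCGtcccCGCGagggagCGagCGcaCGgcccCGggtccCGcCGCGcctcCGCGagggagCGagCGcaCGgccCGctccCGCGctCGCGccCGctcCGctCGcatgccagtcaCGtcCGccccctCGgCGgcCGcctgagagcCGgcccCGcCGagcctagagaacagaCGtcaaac

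CG number did not sort these starts into marked and unmarked. The Tet1 stretch held 17 CGs, a number reached by 31.4% of the 32851 mouse promoters of this length in the table, and was marked throughout. The Tet2 stretch held 57, reached by 0.152% of promoters, and Dnmt3b held 30, reached by 11.7%. Neither was marked. The first Dnmt3a start held 46 (reached by 1.65%), the second start 47 (1.44%) and the third 18 (29.7%). Over all protein-coding genes, starts covered in all 8 libraries had a median of 19 CGs (quartiles 10 and 29) and starts covered in none had 10 (3 and 23), so the ranges overlap widely. The motif searched was CG, which reads the same on both strands. The starts of the other genes ran from 2 to 33 CGs: Tet3 held 22, the Uhrf1 starts 12 and 33, the Dnmt1 starts 2, 12 and 33, and the Dnmt3l starts 6, 4 and 3.

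Dnmt3a (chr12:3801559-3914443, plus strand) carried the mark around its first starts and nowhere else in the gene. The table gives 3 starts, at 3806980, at 3807160 and, 84.76 kb further in, at 3891744. The span comes from a different source and begins before all of them, at 3801559. Cover called upstream here is upstream of the first listed start and lies largely inside the span. In WT VEH 2, all 8 kb of cover lay in the span. The beginning of the span was itself covered in WT VEH 1, WT MET 2, RH VEH 2 and RH MET 2. In WT VEH 1 an interval ran from -7.579 to -0.18 kb relative to the first start, negative being upstream (chr12:3799401-3806800) and a second from 0.821 to 3.42 kb after it (chr12:3807801-3810400). WT VEH 2, RH MET 1 and RH MET 2 had the same pair, with a gap of 1000 bp that held both starts. WT MET 2 had the pair with a gap of 800 bp, and its left interval just reached the first start. In WT MET 1 a single interval of 5.6 kb ran across both starts, and in RH VEH 2 a single interval of 11.2 kb did so. RH VEH 1 had only an interval of 0.8 kb, from 1.021 to 1.82 kb after the first start (chr12:3808001-3808800). That interval lay inside the ground covered by the downstream interval of each other library.

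The summits of the downstream side, or of the single interval, lay 1.053 to 1.629 kb after the first Dnmt3a start in all 8 libraries. The upstream summits of the 5 libraries with a pair lay between -1.091 and -0.739 kb. The first start was covered in 3 libraries, the second in 2, and the third, whose nearest interval was 34.06 to 61.86 kb away, in none. WT MET 1 alone had a further interval upstream, from -15.379 to -9.98 kb, of height 12, whose right end reached into the window. The lncRNAs Dnmt3aos and Gm31623, which lie inside the Dnmt3a span, were uncovered in all 8 libraries. A start inside a gap of at most 1000 bp between 2 intervals was rare: 6 to 15 of 17492 genes had one in a given library (0.0343% to 0.0858%). Over the 8 libraries 52 genes had such a gap at least once. Only Cntfr (6 libraries), Dnmt3a (5) and Arxes1 (4) had it in 3 or more. The limit of 1000 bp was set after the Dnmt3a intervals had been seen, and these 3 genes were named after their values were seen. The smallest gap between any 2 intervals was 800 bp in every library, on a grid of 200 bp. Only gaps of 800 or 1000 bp could thus be counted, which limits how often one is found. Whether closer intervals were joined is not stated, so the single intervals of WT MET 1 and RH VEH 2 may hold a narrower gap.

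**Figure D1:**
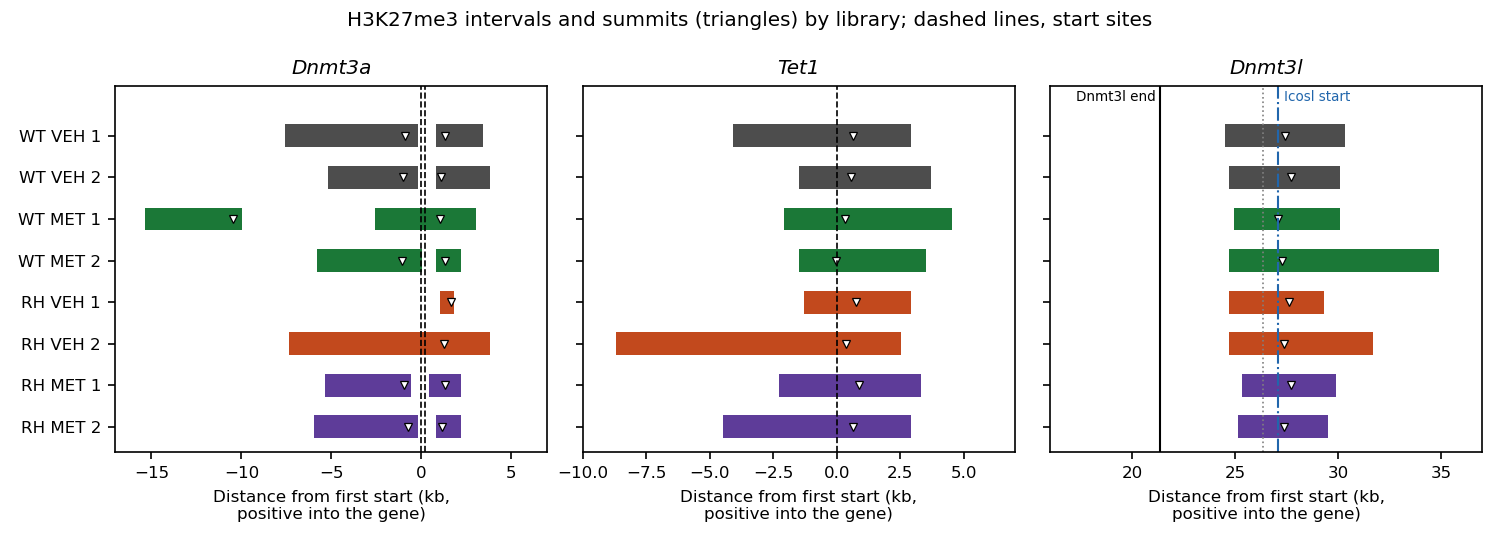
Intervals (bars) and their summits (triangles) at Dnmt3a, Tet1 and Dnmt3l in each of the 8 libraries, against the distance in kb from the first listed start, positive into the gene. The Dnmt3a span begins to the left of its first listed start. Dashed lines mark the starts of Dnmt3a (the first 2) and Tet1, and in the Dnmt3l panel the solid line marks the end of the gene, the dotted line the end of the window and the dash-dotted line the start of Icosl. The gap between 2 intervals holds both of these Dnmt3a starts in 4 libraries and the second alone in WT MET 2, the Tet1 start is covered in all 8, and the interval beside Dnmt3l begins past the end of that gene.

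The Dnmt3a window was covered over 8.14% in WT VEH 1 and 6.51% in WT VEH 2, over 4.92% and 5.86% in WT MET 1 and 2, over 0.651% and 9.11% in RH VEH 1 and 2, and over 5.37% and 5.86% in RH MET 1 and 2. The 2 RH VEH libraries were the lowest and the highest of all 8, so that group spanned every other. In length this was 0.8 kb in RH VEH 1 and 11.2 kb in RH VEH 2, with 6.042 to 10 kb in the other 6 libraries. The highest Dnmt3a summit had a height of 26 and 25 in WT VEH, 30 and 26 in WT MET, 9 and 22 in RH VEH, and 27 and 22 in RH MET. As percentiles within the libraries, 7 of the 8 heights lay between 66.84 and 75.02 and RH VEH 1 lay at 29.04. In that library the Dnmt3a summit was thus also low among the summits of its own library. Both RH VEH percentiles (29.04 and 68.91) lay below both WT VEH ones (72 and 71.51). The share of all genes with such a separation in this comparison was not counted, and no 2 against 2 test was run on percentiles. In WT MET against WT VEH, percentiles separated in either direction for 36.3% of the 6537 genes marked in all libraries. A separation of this kind is thus common and is not read here as a lower mark.

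Group means of the Dnmt3a cover were 7.32% ± 1.15 in WT VEH, 5.39% ± 0.666 in WT MET, 4.88% ± 5.98 in RH VEH and 5.62% ± 0.345 in RH MET (SD, n = 2 each). With limma over 9480 genes, RH VEH minus WT VEH was -2.44 percentage points (95% interval -10.08 to 5.20, adjusted p = 0.988). Without RH VEH 1 this difference became 1.79 points, and without RH VEH 2 it became -6.67 points. Each of these fits leaves 1 library in RH VEH, so only the size of the difference is given. Neither passed the adjusted threshold. The gap between the 2 RH VEH libraries was larger than any difference between group means. RH VEH 1 covered the least of the genome of any library, and the part of that in the low Dnmt3a value was not tested. Over all genes in the fit the median of the same difference was -1.66 points.

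Metformin minus vehicle at Dnmt3a was 0.732 points in RH (95% interval -6.91 to 8.37) and -1.94 points in WT (-9.57 to 5.70), each with an adjusted p of 1 in limma. In RH the difference became -3.50 points without RH VEH 1 and 4.96 points without RH VEH 2. In WT both MET libraries lay below both VEH libraries in cover. This was the only comparison of 2 with 2 in which Dnmt3a cover did not overlap. Such a separation in either direction was found for 25.4% of the 10379 genes with an interval in at least 1 library. RH MET minus WT MET was 0.227 points (-7.41 to 7.87), again with an adjusted p of 1 in limma. The metformin difference in RH exceeded that in WT by 2.67 points (-8.13 to 13.47, adjusted p of 1 in limma), a test of the difference itself. It became -1.56 points without RH VEH 1 and 6.90 points without RH VEH 2. The 2 metformin comparisons have no libraries in common, whereas each shares its VEH or MET libraries with a genotype comparison.

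Over 4 libraries against 4, Dnmt3a cover averaged 5.25% ± 3.49 in RH and 6.36% ± 1.36 in WT (SD, n = 4 each), a difference of -1.11 points (two-sided exact permutation p = 0.657, adjusted p = 1 over 10379 genes). It became 0.425 points without RH VEH 1. Metformin minus vehicle was -0.602 points (exact permutation p = 0.829, adjusted p = 1), with libraries of 5.50% ± 0.453 under metformin and 6.10% ± 3.79 under vehicle. Without RH VEH 1 the metformin difference was -2.42 points, at the smallest exact permutation p this design allows before adjustment (0.0286). It did not pass the adjusted threshold, which no gene can pass alone at that p. Without RH VEH 2 the metformin difference was 0.402 points. The summit percentile of Dnmt3a was 59.5 ± 20.5 in RH and 72.0 ± 2.35 in WT (n = 4 each, exact permutation p = 0.171, adjusted p = 0.898), and it was 71.1 ± 3.69 under metformin and 60.4 ± 20.9 under vehicle (exact permutation p = 0.457, adjusted p = 0.667).

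**Figure D2:**
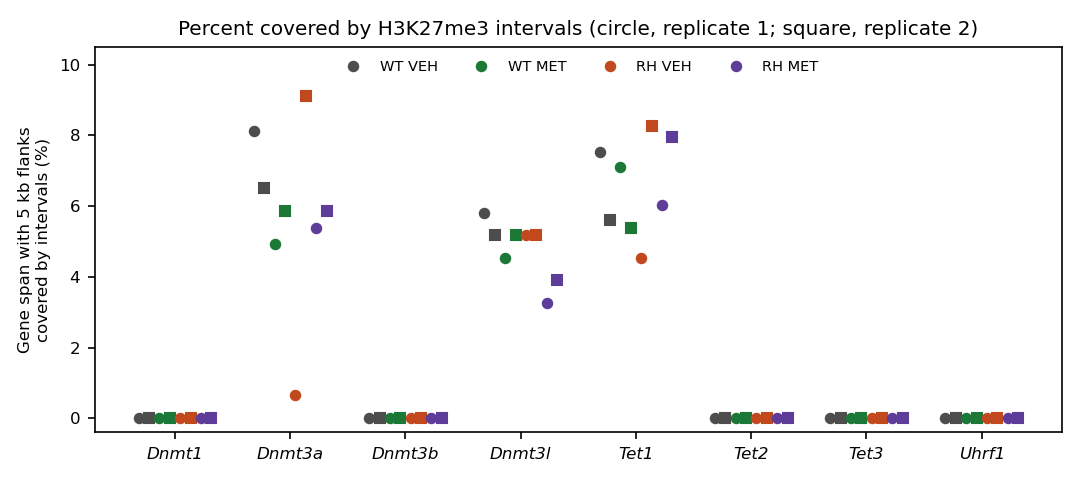
Percent of each gene's span with 5 kb flanks that lay in intervals, 1 point for each of the 8 libraries (colour, group; circle, replicate 1; square, replicate 2). Dnmt1, Dnmt3b, Tet2, Tet3 and Uhrf1 sit at 0 in every library, and the 2 RH VEH values of Dnmt3a (0.651% and 9.11%) enclose all other Dnmt3a values.

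Dnmt3b (chr2:153649411-153687730, plus strand), the paralog of Dnmt3a that acts mainly in early development, had no interval in its window in any library. The nearest interval lay 83.21 to 117.4 kb from its span (median 85.91 kb). Dnmt1 (chr9:20907206-20959888, minus strand), the maintenance enzyme, was also free of intervals, with the nearest at a median of 36.71 kb. In WT VEH 1 alone that distance fell to 12.11 kb, because only this library had an interval at S1pr2, a sphingosine phosphate receptor gene upstream of Dnmt1. Uhrf1 (chr17:56303337-56323486, plus strand) had its nearest interval 50.54 to 55.54 kb away. The neighbours that reach into these windows, Arrdc5 and Kdm4b at Uhrf1 and Mir7081 at Dnmt1, were uncovered as well.

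Dnmt3l (chr10:78042287-78063622, plus strand), the paralog without catalytic activity, was itself uncovered over its whole span and at its 3 starts in all 8 libraries. Its window was counted as marked because an interval began 3.179 to 3.979 kb past the end of the gene. In WT VEH 1 that interval ran over chr10:78066801-78072600. It lay over the lncRNA Gm51775, of which 63.66% to 81.38% was covered, and over the start of Icosl, which encodes the ligand of the T cell costimulator ICOS. Icosl (chr10:78069368-78079525) begins 5.746 kb after the end of Dnmt3l, outside the window, and its start was covered in all 8 libraries. Aire, on the other side of Dnmt3l, was uncovered. The summits of the interval had heights of 28, 36, 39, 37, 17, 27, 33 and 22 in the order WT VEH, WT MET, RH VEH and RH MET, replicate 1 before 2. RH VEH 1 again had the lowest, although within its own library it stood at percentile 68.1, above RH MET 2 at percentile 66.84.

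The covered share of the Dnmt3l window was 5.81% and 5.18% in WT VEH, 4.54% and 5.18% in WT MET, 5.18% in both RH VEH libraries, and 3.26% and 3.90% in RH MET. These values move only with the left edge of the interval, which lies on a grid of 200 bp. The 2 RH MET libraries were the lowest of all 8. They lay below both RH VEH libraries, a separation found for 16.5% of genes in either direction, and below both WT MET libraries, found for 33.1%. These shares are over the 10379 genes with an interval in at least 1 library. RH MET minus RH VEH was -1.60 points (95% interval -4.15 to 0.957, adjusted p = 1 in limma). RH MET minus WT MET was -1.28 points (-3.83 to 1.28, adjusted p = 0.953 in limma). The metformin difference in RH minus that in WT was -0.957 points (-4.57 to 2.65). RH VEH minus WT VEH was -0.319 points (-2.87 to 2.23) and WT MET minus WT VEH was -0.638 points (-3.19 to 1.92), each with an adjusted p of 1 in limma. Over 4 libraries against 4, RH minus WT was -0.798 points (exact permutation p = 0.286, adjusted p = 0.92) and metformin minus vehicle was -1.12 points (exact permutation p = 0.114, adjusted p = 1). The metformin difference was -2.08 points when cover was scaled by the covered length of each library and -1.44 points without WT MET 2. Each had an unadjusted exact permutation p of 0.0286, the smallest these tests allow. Neither passed the adjusted threshold, which no gene can pass alone at that p. The summit percentile differed by -6.34 between RH and WT (exact permutation p = 0.143, adjusted p = 0.898) and by 1.46 between metformin and vehicle (exact permutation p = 0.686, adjusted p = 0.815).

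Tet1 (chr10:62804570-62887469, minus strand) was the one gene of the 8 whose start was covered in all 8 libraries. A single interval lay over it in each, which in RH VEH 1, the library with the narrowest one, ran over chr10:62884401-62888600. The interval was 7 and 5.2 kb wide in WT VEH, 6.6 and 5 kb in WT MET, 4.2 and 11.2 kb in RH VEH, and 5.6 and 7.4 kb in RH MET. Its summit lay between -0.037 and 0.891 kb from the start, positive into the gene, so its position varied by less than 1 kb while its width varied from 4.2 to 11.2 kb. The interval also lay over part of the lncRNA Gm51805, of which 9.339% to 24.9% was covered.

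The Tet1 summit had heights of 35 and 42 in WT VEH, 54 and 55 in WT MET, 26 and 34 in RH VEH, and 51 and 38 in RH MET. As percentiles within the libraries these were 81.34 and 84.14, 87.97 and 86.06, 83.56 and 81.81, and 87.21 and 81.68. The Tet1 summit of RH VEH 1 was the lowest by height but lay in the middle of the 8 by percentile, unlike the Dnmt3a summit of that library. Both WT MET percentiles lay above both WT VEH ones, a separation found in either direction for 36.3% of the 6537 genes marked in all libraries. Over 4 libraries against 4 the percentile averaged 85.7 ± 2.81 under metformin and 82.7 ± 1.35 under vehicle (n = 4 each), and the groups overlapped (difference 3.02, exact permutation p = 0.114, adjusted p = 0.41 over 6537 genes). RH minus WT was -1.32 (exact permutation p = 0.486, adjusted p = 0.934).

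Tet1 was covered over 7.54% and 5.597% of its window in WT VEH, 7.10% and 5.38% in WT MET, 4.52% and 8.26% in RH VEH, and 6.03% and 7.97% in RH MET. The groups overlapped in every comparison of 2 with 2. RH VEH minus WT VEH was -0.178 points (95% interval -4.95 to 4.59), RH MET minus RH VEH 0.609 points (-4.16 to 5.38) and WT MET minus WT VEH -0.323 points (-5.09 to 4.44), each with an adjusted p of 1 in limma. RH minus WT over 4 libraries against 4 was 0.288 points (exact permutation p = 0.8, adjusted p = 1) and metformin minus vehicle was 0.143 points (exact permutation p = 0.886, adjusted p = 1). RH VEH minus WT VEH was 1.69 points without RH VEH 1 and -2.05 points without RH VEH 2, so its sign depended on which of these libraries was used. The same held for RH MET minus RH VEH, at -1.26 and 2.48 points. With all libraries, RH MET minus WT MET was 0.7535 points (95% interval -4.01 to 5.52). The metformin difference in RH exceeded that in WT by 0.932 points (-5.81 to 7.67). Neither was called by limma.

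**Figure D3:**
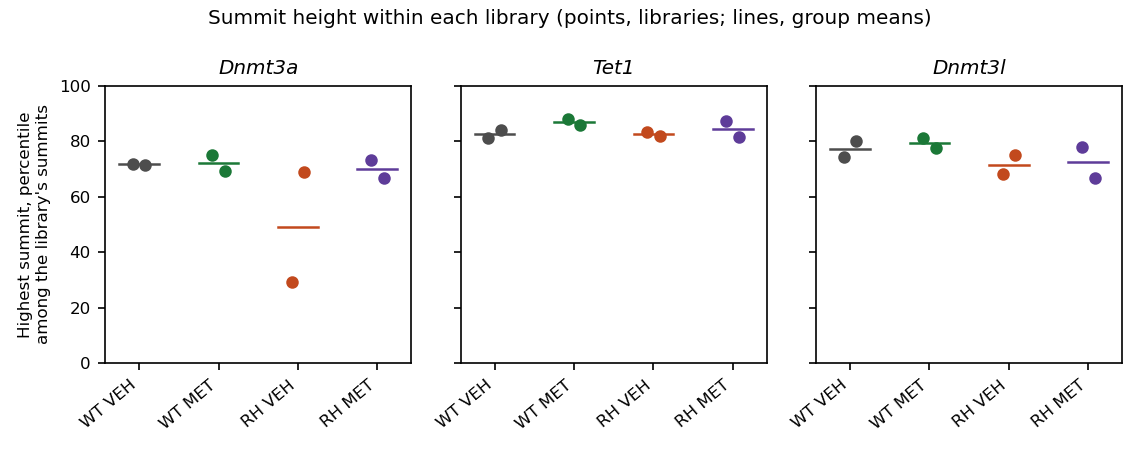
Highest summit in the window of Dnmt3a, Tet1 and Dnmt3l as a percentile among all summits of the same library, 1 point for each library and a line at each group mean (n = 2). The RH VEH 1 point of Dnmt3a, at 29.04, lies apart from the other 7 Dnmt3a points (66.84 to 75.02), while the Tet1 points lie between 81.34 and 87.97.

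Tet2 (chr3:133463677-133545136, minus strand) and Tet3 (chr6:83362373-83457208, minus strand) had no interval in their windows in any library. Around Tet3 the nearest interval lay 58.97 to 61.77 kb from the span, and its neighbours Bola3, Mir6374 and B230319C09Rik were uncovered too. Tet2 lay in the widest unmarked stretch of the 8 genes, with the nearest interval at a median of 507.8 kb. In 3 of the 4 MET libraries (WT MET 1, WT MET 2 and RH MET 1) an interval lay nearer, at 226.7 to 226.9 kb, at Arhgef38, a guanine nucleotide exchange factor gene. It was absent from RH MET 2 and from all 4 VEH libraries, and its summit heights of 11, 14 and 10 stood at percentiles 15.42, 34.15 and 13.94, low in each library. The 3 libraries with it also held the most intervals: 16572 in WT MET 1, 16694 in WT MET 2 and 16879 in RH MET 1. WT VEH 2 came next with 16259, and RH MET 2 held 15257. Metformin and the number of intervals called cannot be told apart here. This interval was noticed after the values were seen and was given no test. How many genes show the same pattern over the libraries was not counted.

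The limma fits called no difference for the 3 genes with an interval, in any comparison. Among all genes fitted, 0.0422% were called in RH VEH against WT VEH (4 of 9480), 0.0422% in RH MET against RH VEH, 0.0633% in WT MET against WT VEH, 0.0949% in RH MET against WT MET and 0% in the difference between the 2 metformin effects. Counts at an unadjusted p under 0.05 were 510, 271, 446, 546 and 304 genes in the same order. The exact permutation tests called 0 genes (0%) for genotype and 0 (0%) for metformin, for cover as for summit percentile. That outcome was nearly fixed by the design and says little of any single gene. The smallest p of these tests is 0.0286. Adjustment over 10379 or 6537 genes passes 0.05 only where a large share of the genes reach that p. At an unadjusted exact permutation p under 0.05 the tests counted 403 and 124 genes for cover, and 200 and 532 for summit percentile. Non-overlap of cover was counted over the 10379 genes with an interval in at least 1 library. Over 4 libraries against 4, it was found for 3.88% of them by genotype and 1.19% by metformin. In RH VEH against WT VEH it was found for 20.4%. Only 3 of the 8 genes described here were among the 10379, and none of the 3 separated in these comparisons. The other 5 had no interval and could not separate. With so few calls among all genes, the absence of a call at these 3 genes is the usual outcome and does not show that their cover was alike in the groups.

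None of the 8 genes had an interval in both libraries of a group and neither of the group it was compared with. Among all protein-coding genes, 0.196% had the mark in RH VEH 1 and 2 but in no WT VEH library, and 1.02% the other way round. Between the RH groups, 1.2% were marked only in both MET libraries and 0.206% only in both VEH libraries. The same shares in WT were 1.04% and 0.178%. Under metformin, 0.361% were marked in both RH libraries and neither WT library, and 1.03% the other way round. A count of 0 among 8 genes is therefore near the background.

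**Figure D4:**
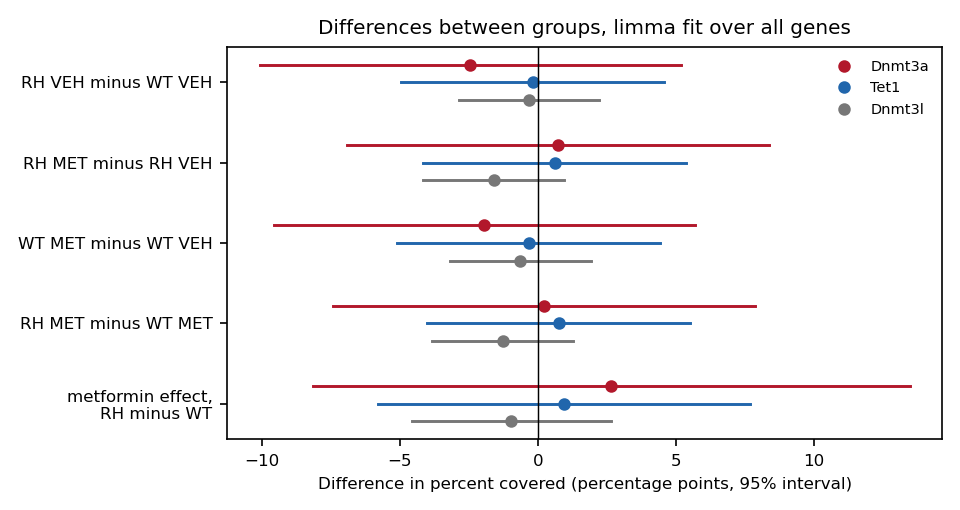
Differences between group means in percent covered for Dnmt3a, Tet1 and Dnmt3l, in percentage points, with 95% intervals from the limma fit over all genes. Every interval includes 0, and the intervals of Dnmt3a, whose 2 RH VEH libraries lay far apart, are the widest.

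As a percent of the window, cover at these genes was low for marked genes. The measure depends on window length, which was 122.9 kb for Dnmt3a and 92.9 kb for Tet1, and genes were not matched for it. It does not read the strength of the mark, since the Tet1 summits stood at percentiles 81.34 to 87.97 of their libraries. The Dnmt3l value is only the edge of an interval that lies past the gene. Averaged over the 8 libraries it was 5.80% for Dnmt3a, 6.55% for Tet1 and 4.78% for the Dnmt3l window, against a median of 27.9% for the 6537 genes marked in all 8 libraries. Their values exceeded 14.8%, 16.5% and 12.1% of those genes. The genes with the most similar cover, by the mean absolute difference over the 8 libraries, were Dlgap1 (0.873 points) and Rufy3 (0.930) for Dnmt3a, Ptpn14 (0.655) and Pde8a (0.656) for Tet1, and Mpped2 (0.441) and Adamts20 (0.510) for the Dnmt3l window. Likeness of cover says nothing of shared function or control.

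Other genes of DNA methylation and demethylation were read from a list of 42, of which 41 were matched to the table and Dnmt3c was not. Of these, 8 (19.5%) had an interval in all 8 libraries and 22 (53.7%) in none. Among the 8 were Gadd45b (67.72% to 75.98% of the window) and Smug1 (40.74% to 63.35%), which act in DNA repair, Cxxc4 (32.2% to 48.86%), Cxxc5 (19.85% to 36.87%) and Kdm2b (4.976% to 8.553%), which carry CG-binding zinc fingers, Wt1 (39.72% to 96.85%), a transcription factor that binds TET2, and Zfp57 (26.58% to 61.33%), which protects imprinted methylation. The unmarked genes included the base excision enzyme Tdg, the UHRF1 paralog Uhrf2, the remodeller Hells and the metabolic enzyme Idh2. Of Mbd1 to Mbd6, which encode methyl-CG binding domain proteins, only Mbd3 had an interval, in 3 libraries.

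Among the 11 genes marked in some libraries, Cdca7 and Ogt had an interval in 7, Ung in 6, Gadd45g in 5, Qser1 in 2, and Dppa3, Zbtb33, Zbtb4 and Idh1 in 1. RH VEH 1 marked 9 of the 41 genes, the fewest, and WT MET 1 marked 16, the most. Cdca7 and Ogt were missed only in RH VEH 1, and Ung only in RH VEH 1 and WT VEH 1. Ogt and Zbtb33 are X-linked, and in female cells an interval does not separate the active from the inactive X chromosome. Qser1, whose product shields developmental promoters from DNMT3 enzymes, was the one gene of the list with an interval in both libraries of a group and neither of a group it was compared with: 5.955% of its window was covered in WT MET 1 and in WT MET 2, and 0% in the other 6 libraries. Among all protein-coding genes 1.04% were marked in this way in WT MET against WT VEH and 1.03% in WT MET against RH MET. No list gene was called by limma in any of the 5 comparisons, among the 15 that entered the fit.

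**Figure D5:**
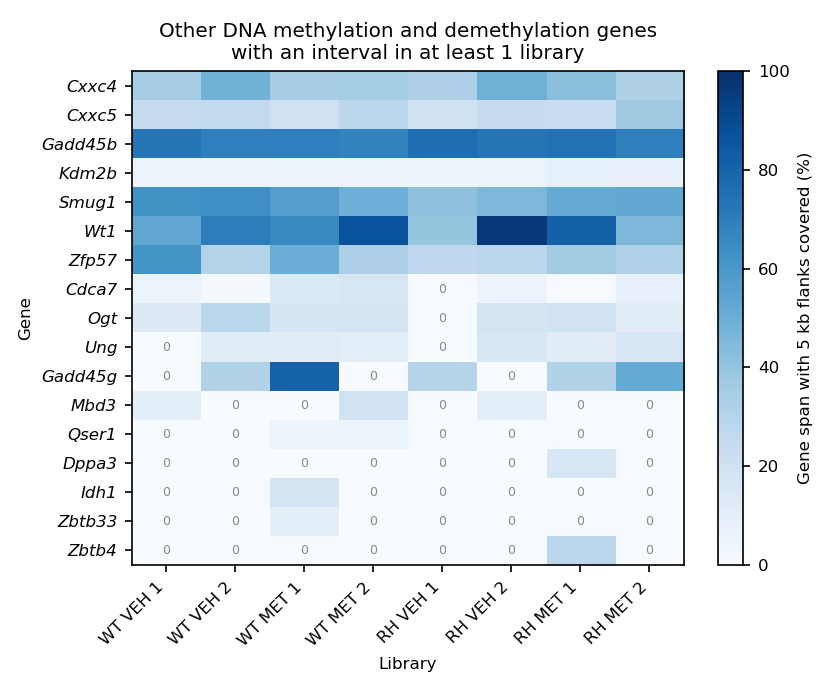
Percent of the window covered by intervals in each of the 8 libraries (columns) for other DNA methylation and demethylation genes reported here with an interval in at least 1 library (rows); 0 marks a library without one. The upper rows, from Cxxc4 to Zfp57, are marked in all libraries, and Qser1 is marked in both WT MET libraries and nowhere else.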

How the data were processed

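H3K27me3 ChIP-seq of 8 libraries was used (2 for each of 4 groups), and p-values of 2 against 2 cannot fall below 0.333 in an exact test. Per the submitters' processing notes, bcl2fastq 2.20, BWA 0.7.12 and the build mm10 were used. Not given in the sources used here are the interval caller, read filters, any depth adjustment and what the input was used for. Per the file headers, the authors deposited an interval track and a summit track for each library. The value at a summit is a score (its height), deposited as a whole number, used here to describe and rank intervals within a library. The minimum height of 15 was 1 fixed cut for all libraries. It kept from 38.77% of intervals in RH VEH 1 to 62.1% in WT MET 2. Results at that cut, and raw heights set side by side, therefore also carry differences in scale between libraries.

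Gene spans came from a RefSeq table of GRCm38.p6, and strands and starts from RefSeq promoter sequences of the same build (17492 protein-coding genes with a start). A gene was marked in a library where an interval overlapped its window by at least 1 bp. Percent covered was tested with limma 3.58.1, without transformation, over genes marked in at least 2 libraries, and by exact permutation over all 70 assignments of 4 against 4 (smallest p 0.0286) over genes marked in at least 1. Adjustment was by Benjamini-Hochberg over all genes tested, with a threshold of 0.05. Summit percentiles were tested over genes marked in all 8 libraries, a test added after the data were seen. The scripts were tested on simulated data and ran in Python 3.11.15 and R 4.3.3. The 8 genes and all lists were chosen with earlier results of these data known. Named genes are the 8 members, reference genes, neighbours in their windows, the 2 genes of most similar cover for each marked member, and list genes marked in both libraries of a group and neither of another; further list genes, cell type markers and genes beyond the windows were named after their values were seen. A few genes counted in the lists are not reported here by name. Alternatives were other flanks (none, 20 kb), windows of 2500 bp around starts, a minimum height of 15, equal interval numbers (11620), scaling by covered length, an arcsine transform, other gene filters, a replicate block and leaving out each library. For the number of marked genes, a minimum overlap of 1000 bp was also used.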

Additional observations from a re-analysis of the deposited data

How the results depend on the processing

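Across 273 alternative values of 17 differences at Dnmt3a, Tet1 and Dnmt3l, 230 kept their direction, 42 changed sign and 1 was 0. For Tet1 and Dnmt3l, genotype under metformin and the difference of metformin effects were not put through the alternatives. No alternative took a difference past the adjusted threshold, which no gene could pass alone in the exact permutation tests. The cause of the changes was not tested. The number of the 8 genes marked in all libraries was 3, and 2 to 3 under the alternatives. Dnmt3a dropped out at a minimum height of 15 and at a minimum overlap of 1000 bp. In both cases its interval in RH VEH 1, of 0.8 kb and height 9, no longer counted. Dnmt3l dropped out without flanks and in windows around starts. Replicate numbers did not pair the libraries (correlations of same-numbered deviations -0.0212 to 0.23), and under a replicate block no member was called (smallest unadjusted limma p = 0.223). The limma counts over all genes (4, 4, 6, 9 and 0) ran from 0 with 20 kb flanks up to 31 (without RH VEH 2), 28 (start windows), 39 (minimum height 15), 48 (arcsine transform) and 35 (start windows), and were 0 in each comparison under the replicate block.

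Values that changed sign are given in percentage points. With 20 kb flanks, Dnmt3a moved to 1.14 (metformin, 4 against 4), 1.70 (metformin in WT), -3.07 (genotype under metformin) and -1.11 (difference of metformin effects), Tet1 to -0.610 (metformin, 4 against 4), 1.30 (genotype under vehicle) and -0.976 (metformin in RH), and Dnmt3l to 0.652 (metformin, 4 against 4), 0.326 (genotype under vehicle) and 3.42 (metformin in WT). In windows around starts, Dnmt3a moved to 5.40 (metformin, 4 against 4), 3.63 (metformin in WT) and -8.15 (genotype under metformin). At a minimum height of 15 it moved to -0.895 (metformin in RH) and -1.55 (genotype under metformin). Without flanks, Tet1 moved to -0.905 (genotype, 4 against 4) and 0.844 (metformin in WT). Scaled by covered length, Tet1 moved to -0.507 (metformin, 4 against 4) and 1.24 (genotype under vehicle), and Dnmt3l to 0.662 (genotype, 4 against 4) and 1.48 (genotype under vehicle).

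Leaving out each library in turn, Dnmt3a ranged from -2.40 to 0.425 (genotype, 4 against 4), -2.42 to 0.402 (metformin, 4 against 4), -6.67 to 1.79 (genotype under vehicle), -3.50 to 4.96 (metformin in RH), -2.75 to -1.12 (metformin in WT), -0.244 to 0.698 (genotype under metformin) and -1.56 to 6.90 (difference of metformin effects). Tet1 ranged from -0.233 to 1.01 (genotype, 4 against 4), -0.509 to 0.736 (metformin, 4 against 4), -2.05 to 1.69 (genotype under vehicle), -1.26 to 2.48 (metformin in RH) and -1.29 to 0.646 (metformin in WT). Dnmt3l ranged from -1.06 to -0.425 (genotype, 4 against 4), -1.44 to -0.798 (metformin, 4 against 4), -0.638 to 0 (genotype under vehicle, 0 without WT VEH 1), -1.91 to -1.28 (metformin in RH) and -0.957 to -0.319 (metformin in WT). The lone library of a group is then assumed to vary like the other groups.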
